A study of Drosophila melanogaster with 12 samples.

Results

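Adult Drosophila melanogaster carrying a mutation of DHR96 were compared with wild type after both had eaten phenobarbital. The comparison uses 6 of the 12 arrays of the study: 3 of wild type and 3 of the mutant, all from flies that were kept without food overnight and then given sucrose with 0.3% phenobarbital. The other 6 arrays, 3 per genotype, come from flies starved in the same way and given sucrose without the drug. In the sample titles wild type is CS, read as Canton S, and E25 was read as the DHR96 mutant because it is the other strain named. The labels describe neither the allele nor the sex of the flies, and where no separate cultures are stated, a p-value measures only the spread between arrays, which may be technical.

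DHR96, encoded by Hr96, is a nuclear receptor, a transcription factor whose activity can be set by a small ligand, and it is related to the vertebrate receptors PXR and CAR that sense foreign compounds. In flies it is known for roles in the response to toxins and in the handling of dietary fat and cholesterol, much of it in the gut. Phenobarbital is a barbiturate that raises the transcripts of many detoxifying enzymes, so the comparison asks which transcripts stand at a different level in the mutant once the drug is present.

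Few transcripts separated the genotypes on phenobarbital, 0.142% of genes by 1 probe set each. Of the detoxifying enzyme lists, UDP-glycosyltransferases (35 genes) and carboxylesterases (13 genes) held 1 call each. Cytochrome P450s (81 genes) and glutathione S-transferases (34 genes) held none, which at that share says little about them. A group of neighbouring genes (CG7953, CG8997 and CG7916), CG4734, Hr96 and the genes flanking Hr96 were higher in the mutant. The gut proteases Jon65Aii and Jon99Fi, the sterol-binding proteins Npc2g and Npc2h, the sugar-responsive factor sug and the esterase alpha-Est9 were lower. These calls were not equally firm. Of 16 alternatives given below, sug and CG7916 kept their call in 6 each and alpha-Est9 in 7. CG4734, CG7953 and CG8997 kept theirs in all 16. Of 18769 probe sets, 22 were called (0.117%), 14 higher (0.0746%) and 8 lower (0.0426%) in the mutant, a call being a Benjamini-Hochberg adjusted p under 0.05 in limma and at least a 1.5-fold difference. In all, 2151 of the 18769 probe sets had an unadjusted p under 0.05. With 1 probe set per gene, 17 of 11982 genes were called (0.142%), 11 higher (0.0918%) and 6 lower (0.0501%), while PCB and CG13784 were called through another of their probe sets, and the remaining 3 called probe sets name no gene or a pair of genes. The higher count was 9 without wild-type replicate 1, 22 without wild-type replicate 3 and 9 with the replicate number as a block over all 12 arrays. The lower count was 5 without mutant replicate 2, 5 with that block within the phenobarbital arrays and 1 when these 6 arrays were fitted alone.

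The 6 arrays were alike in overall brightness. Their median intensity ran from 38.5 to 45.0. Probe sets under a log2 value of 4, an intensity of 16, are called dim here and made up 45.1% to 45.6% of each array. Between arrays of a group, the log2 values of all probe sets differed with an SD of 0.237 to 0.363. The median genotype difference was -0.02 over all probe sets and 0.08 over the 10341 that were not dim, and for 98.7% of the latter the genotype means lay within 2-fold of each other. All 22 called probe sets had 3 mutant arrays on one side of the 3 wild-type arrays, but so did 9.94% of all probe sets in the higher and 41.5% in the lower direction, the latter mostly dim (17.6% and 8.14% of those not dim), so separation by itself is common here. All values below are log2 of the deposited intensity, and each difference is the mutant minus wild type on phenobarbital unless said otherwise.

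**Figure D1:**
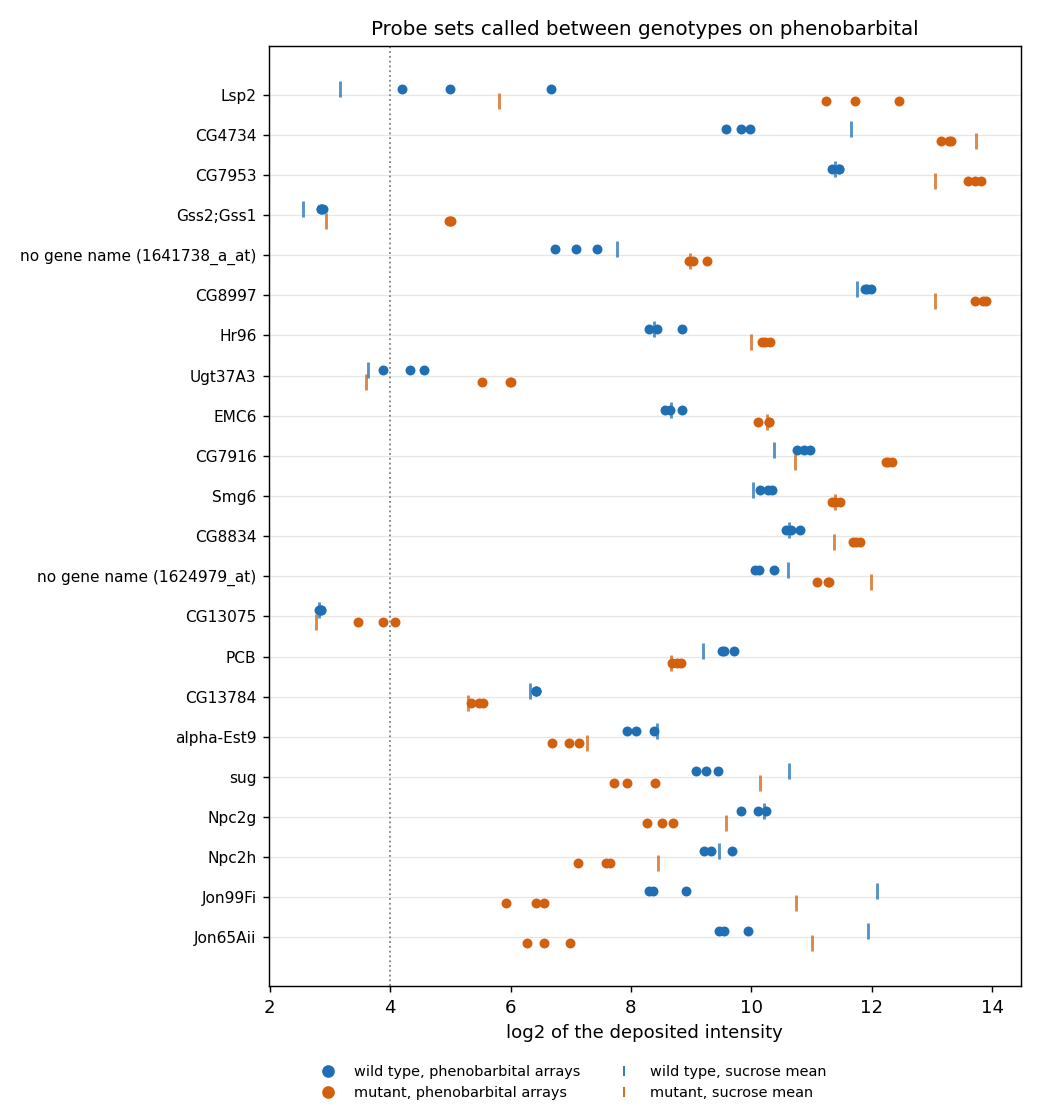
The horizontal axis gives log2 of the deposited intensity of each of the 22 called probe sets, ordered by difference. Points are the 3 wild-type (blue) and 3 mutant (orange) phenobarbital arrays, vertical ticks are the sucrose means of the same genotype, and the dotted line marks the dim limit of 4. The mutant and wild-type points do not overlap for any of the 22, and the gap is widest for Lsp2, CG4734 and Jon65Aii.

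Hr96 was measured at 8.44, 8.30 and 8.85 in the wild-type arrays and at 10.23, 10.18 and 10.30 in the mutant arrays. The arrays labelled mutant thus held more of this transcript than wild type, by 1.71 ± 0.14 (log2, SE) or 3.27-fold (limma, adjusted p = 0.00125). Why the level was higher was not tested, and where the probes lie relative to the lesion is not stated in the labels. The level separates the arrays as titled but does not show which genotype is the mutant, so every direction given for the mutant below is that of the arrays titled E25. With the 6 phenobarbital arrays fitted alone, a fit that cannot change the difference itself, Hr96 lost its call (adjusted p = 0.0953). EMC6, a subunit of a complex that inserts membrane proteins into the endoplasmic reticulum, and Smg6, an endonuclease of nonsense-mediated mRNA decay, flank Hr96 in gene order. EMC6 stood at 8.56, 8.65 and 8.85 in wild type and at 10.29, 10.12 and 10.30 in the mutant, a difference of 1.55 ± 0.09 (adjusted p = 0.000313). Smg6 stood at 10.14, 10.34 and 10.27 against 11.47, 11.35 and 11.40, a difference of 1.15 ± 0.06 (adjusted p = 7.58e-05). In both genes the arrays of a genotype lay far closer to each other than to the other genotype. The next gene out on either side gave no call: beta4GalT7, next to EMC6, differed by 0.62 ± 0.19 (adjusted p = 0.366) and Ythdf, next to Smg6, by 0.36 ± 0.18 (adjusted p = 0.371). Hr96 was the only called gene in a list of 20 nuclear receptors (median -0.03).

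The genes CG8997, CG7916 and CG7953 lie side by side and were all higher in the mutant. CG7953 was at 11.46, 11.46 and 11.34 in wild type and at 13.82, 13.72 and 13.61 in the mutant, 4.92-fold higher (2.30 ± 0.17, adjusted p = 0.000853). CG8997 was at 11.93, 11.99 and 11.88 against 13.91, 13.85 and 13.71, 3.71-fold higher (1.89 ± 0.14, adjusted p = 0.000853). Both genes thus separated the genotypes by many times the distance between arrays of a group. CG7916 was at 10.77, 10.87 and 10.97 against 12.25, 12.33 and 12.27, 2.66-fold higher (1.41 ± 0.19, adjusted p = 0.0314). Its 6 phenobarbital arrays were tight, yet the call was lost with any 1 of them left out (adjusted p = 0.0553 to 0.131), with either replicate block (0.112 and 0.0969) and with the mean of the testis or the eggshell markers as a covariate (0.0824 and 0.405), and was kept in the phenobarbital arrays alone (0.0121). The next gene in order, CG7968, was at 5.22, 5.21 and 5.28 in wild type and at 7.46, 7.37 and 7.52 in the mutant, a difference of 2.21 ± 0.39 with an adjusted p of 0.119. Fitted on the 6 phenobarbital arrays alone it passed (adjusted p = 0.00127). On sucrose CG7968 was at a mean of 5.14 ± 0.87 in wild type and 5.10 ± 0.51 in the mutant (SD, n = 3), a wider spread than on phenobarbital. CG7968 was named after its values were seen.

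CG4734 gave the smallest adjusted p of all 18769 probe sets. It was at 9.83, 9.59 and 9.98 in wild type and at 13.29, 13.32 and 13.16 in the mutant, 11-fold higher (3.46 ± 0.13, adjusted p = 1.89e-05). Its level in wild type was lower on phenobarbital than on sucrose, 9.80 against 11.65, while in the mutant it was 13.25 against 13.73. The list of CG4734 with the CG7916 neighbours had been assembled from earlier results of these arrays, so its count of 4 called among 5 is a description of how it was chosen.

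The digestive protease genes Jon65Aii and Jon99Fi were lower in the mutant. They belong to the Jonah family, chymotrypsin-like serine proteases secreted by the midgut. Jon65Aii was at 9.46, 9.95 and 9.55 in wild type and at 6.99, 6.56 and 6.28 in the mutant, 8.26-fold lower (-3.05 ± 0.19, adjusted p = 0.000318). Jon99Fi was at 8.92, 8.37 and 8.30 against 6.42, 6.55 and 5.92, 4.69-fold lower (-2.23 ± 0.22, adjusted p = 0.00635). For both genes the highest mutant array lay more than 1.5 below the lowest wild-type array. Fitted on the 6 phenobarbital arrays alone, neither was called (adjusted p = 0.0656 and 0.15), and Jon99Fi also lost its call with the mean of the eggshell markers as a covariate (0.15). The drug-response contrasts of each genotype share these arrays and so are given beside them as values: for Jon65Aii, phenobarbital minus sucrose gave -2.29 (wild type) and -4.41 (mutant), and for Jon99Fi -3.56 and -4.44.

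Of 13 measured Jonah genes no others were called. Jon25Bii was at 9.48, 10.18 and 9.11 in wild type against 8.32, 7.62 and 8.08 in the mutant, a difference of -1.58 (adjusted p = 0.178). The genes beside Jon65Aii in order, Jon65Ai, Jon65Aiii and Jon65Aiv, differed by -0.24, -0.19 and -0.07 (adjusted p = 0.371 each). Jon65Aiii and Jon74E, the members of highest mean, differed by -0.19 and 0.001. The median over the 13 genes was -0.19, against -0.01 over all genes. Among 9 trypsin genes none was called (median -0.04), nor among 12 maltase and amylase genes, enzymes of sugar digestion (median 0.25). Their levels show that gut transcripts were present in every array, with summed intensities of the trypsin list between 23419 and 26437. In whole flies, less of a gut transcript per cell and fewer gut cells cannot be told apart.

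Npc2g and Npc2h, adjacent genes for NPC2-type proteins, which bind sterols and related lipids, were both lower in the mutant. Npc2h was at 9.21, 9.67 and 9.33 in wild type and at 7.59, 7.65 and 7.12 in the mutant, 3.88-fold lower (-1.96 ± 0.20, adjusted p = 0.00739). Npc2g was at 9.83, 10.24 and 10.11 against 8.70, 8.51 and 8.26, 2.97-fold lower (-1.57 ± 0.17, adjusted p = 0.0121). In each gene all mutant arrays lay over 1 log2 unit below the wild-type arrays. Npc2g lost its call without wild-type replicate 2 (adjusted p = 0.0592), without mutant replicate 2 (0.052) and with a replicate block within the phenobarbital arrays (0.0513), and both lost theirs when these 6 arrays were fitted alone (0.126 each). With the eggshell marker mean as a covariate the adjusted p was 0.15 for Npc2h and 0.263 for Npc2g. CG15543, the next gene in order, differed by -0.79 and was not called (adjusted p = 0.371).

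Of 9 measured genes of Niemann-Pick sterol transport no others were called. Npc2a and Npc2b differed by 0.15 and -0.10, and Npc1a, a membrane protein that takes over sterol from NPC2 proteins, by -0.10. Npc2e was at 9.47, 6.50 and 9.61 in wild type and at 13.28, 13.22 and 13.34 in the mutant. The mutant arrays agreed closely and all lay above wild type, but wild-type replicate 2 stood apart from the other wild-type arrays, and the difference of 4.75 ± 1.0 was not called (adjusted p = 0.199). The same gene was at means of 9.14 and 13.53 on sucrose, a difference of 4.39 that was not called either. Of 23 genes of lipid uptake, lipases and lipoprotein receptors none was called (median -0.02), and the intestinal lipase gene mag differed by -0.85 ± 0.20 (adjusted p = 0.262). On sucrose mag was called, with a difference of -2.30 (limma, adjusted p = 0.00308). Its wild-type mean was 11.18 on sucrose and 8.78 on phenobarbital. Fatty acid synthesis (12 genes, median 0.09) and fatty acid oxidation (10 genes, median 0.10) held no call, and in both lists every measured gene that was not dim had a 95% interval within 2-fold.

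A sugar-responsive regulator, an enzyme of central metabolism and an esterase were also lower. The transcription factor sug (sugarbabe), which responds to dietary sugar, was at 9.25, 9.09 and 9.45 in wild type and at 7.93, 8.4 and 7.72 in the mutant, 2.37-fold lower (-1.25 ± 0.18, adjusted p = 0.0467). This call sat at the threshold: it was lost without wild-type replicate 1, 2 or 3 or mutant replicate 1 or 3 (adjusted p = 0.0739 to 0.152), with either replicate block (0.125 and 0.104), with the testis or eggshell covariate (0.123 and 0.412) and in the phenobarbital arrays alone (0.293). PCB, pyruvate carboxylase, which turns pyruvate into oxaloacetate, was at 9.51, 9.72 and 9.54 against 8.83, 8.77 and 8.68, 1.78-fold lower (-0.83 ± 0.11, adjusted p = 0.0294). A second probe set of the gene, at means of 12.57 and 12.42, differed by only -0.15 and was not called (adjusted p = 0.371), so the probe sets disagree in size. The PCB call was lost with any 1 phenobarbital array left out (adjusted p = 0.0553 to 0.121), with the block within the phenobarbital arrays (0.0758), with the testis or eggshell covariate (0.0651 and 0.384) and in those arrays alone (0.0879). alpha-Est9, of a cluster of carboxylesterase genes, was at 8.09, 8.39 and 7.93 against 6.70, 6.97 and 7.14, 2.30-fold lower (-1.20 ± 0.16, adjusted p = 0.0294). The arrays of the genotypes did not overlap, but the call was lost without wild-type replicate 1 or 2 or mutant replicate 1 or 2 (adjusted p = 0.0833 to 0.115), with the block within the phenobarbital arrays (0.0609), under quantile normalization (0.0592), with the testis or eggshell covariate (0.0837 and 0.412) and in those arrays alone (0.227). Its cluster neighbours alpha-Est10, alpha-Est8 and alpha-Est7 differed by -0.14, -0.14 and 0.17, with no call.

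Among 14 genes of sugar sensing and fasting only sug was called (median -0.06), and among 15 genes of glycolysis and sugar storage none was (median -0.06). All 15 of the latter had a 95% interval within 2-fold. In the methionine cycle, 7 genes gave no call with a median of 0.36. Cbs, cystathionine beta-synthase, which draws homocysteine towards cysteine, was at 10.21, 10.22 and 10.45 in wild type and at 11.05, 11.12 and 11.34 in the mutant. Its arrays did not overlap, and its difference of 0.88 ± 0.14 was just short of a call (adjusted p = 0.0727). With dim probe sets left out Cbs passed, as it did with an intensity trend and robust prior (adjusted p = 0.0392 and 0.0358). Cbs was named after its values were seen.

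The detoxifying enzymes that phenobarbital is known for gave no call between genotypes, and most of their differences were small with intervals within 2-fold. Of 14 reference genes of the drug response, listed with earlier results of these arrays in view, none was called. Of these, 3 had an unadjusted p under 0.05 (limma), against 2151 of all 18769 probe sets. A 95% interval of the difference within 2-fold was found for 10 of the 14. Cyp6a8, a cytochrome P450 gene, had a mean of 12.29 in wild type and 12.61 in the mutant, a difference of 0.32 with a 95% interval of 0.08 to 0.56 (adjusted p = 0.371). GstD2, a glutathione S-transferase gene, was at 12.60, 12.81 and 12.65 against 12.99, 12.81 and 12.65. These arrays overlapped, and the difference of 0.13 had an interval of -0.41 to 0.68. The P450 genes Cyp6a2, Cyp6w1, Cyp6d5, Cyp6g1, Cyp6a21 and Cyp12d1-d differed by 0.02, -0.03, 0.11, 0.21, 0.13 and 0.12. Jheh2, an epoxide hydrolase, differed by -0.14 with an interval of -0.27 to -0.01. For Gnmt, glycine N-methyltransferase (0.36, interval -0.65 to 1.38), GstD7 (0.60, interval 0.10 to 1.10), Ugt35C1 (0.48) and GstD5 (0.16, interval -1.34 to 1.66) the interval reached beyond 2-fold, so these arrays leave room for a difference of that size. GstE7 differed by 0.17.

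**Figure D2:**
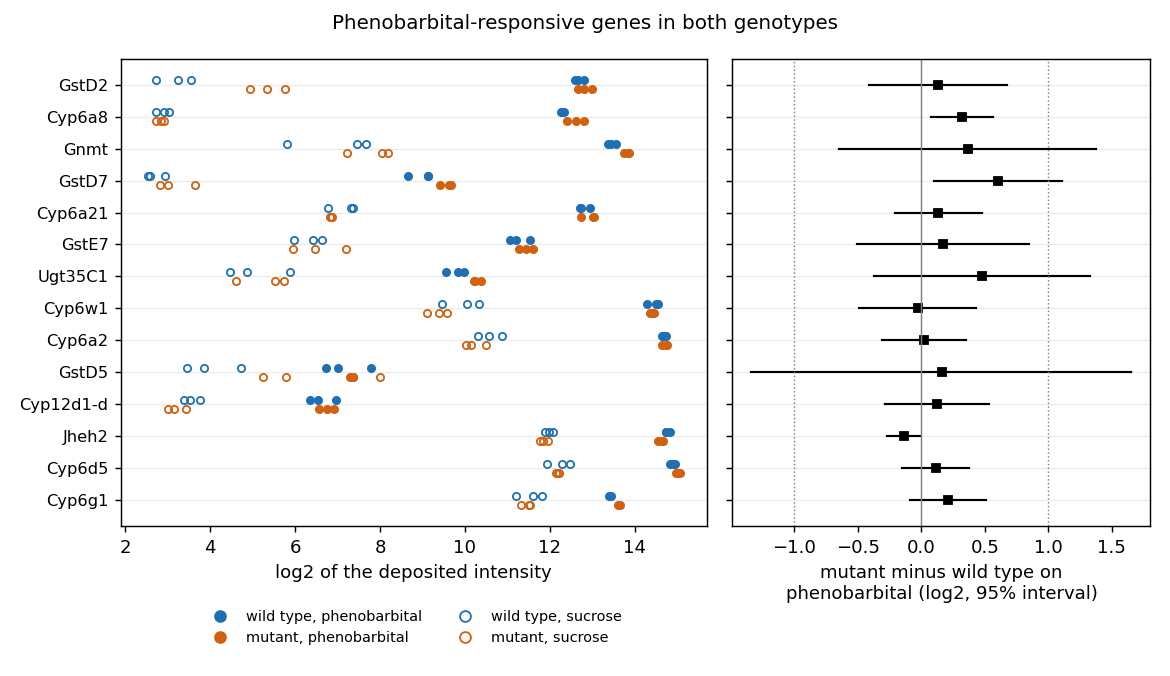
Left, log2 of the deposited intensity of 14 phenobarbital-responsive genes in each array, with filled points for phenobarbital and open points for sucrose (blue, wild type; orange, mutant). Right, the mutant minus wild-type difference on phenobarbital with its 95% interval, with dotted lines at 2-fold; the filled points of both genotypes lie close together, and 10 of the 14 intervals stay within 2-fold.

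Whole enzyme families held few calls or none. With 0.142% of all genes called, a list without a call says little by itself. None of 81 cytochrome P450 genes was called by limma, with 11 at an unadjusted p under 0.05. Over all 18769 probe sets 2151 had such a p, the background for the counts of this kind that follow. Of these genes 58 were not dim, and they had a median difference of 0.08 and 46 intervals within 2-fold; a dim gene has a narrow interval at the floor of the array and shows no likeness. The extremes were Cyp313a1 at -0.85 and Cyp4s3 at 1.39. Cyp4s3 was at 3.81, 4.24 and 3.80 in wild type and at 5.77, 5.30 and 4.95 in the mutant, with no overlap, an adjusted p of 0.0585 and a call under quantile normalization (0.0194) and with an intensity trend and robust prior (0.0178). None of 34 glutathione S-transferase genes was called, with 4 at an unadjusted p under 0.05, and the 27 that were not dim had a median of 0.10 and 22 intervals within 2-fold. Of 24 drug and organic anion transporters none was called (6 at an unadjusted p under 0.05, median 0.08), and the same held for 11 alcohol, aldehyde and carbonyl redox genes (4, median -0.01), 10 glutathione and antioxidant genes (1, median -0.001) and 7 genes of juvenile hormone turnover and response (2, median -0.23).

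UDP-glycosyltransferases couple sugars to drugs and other small molecules, and of 35 such genes Ugt37A3 was called. It was at 3.88, 4.33 and 4.57 in wild type and at 6.01, 5.53 and 5.99 in the mutant, 3.0-fold higher (1.58 ± 0.20, adjusted p = 0.0277). Wild type was near the dim limit, where the size of a fold depends on how background was modelled. The call was lost without wild-type replicate 1 or 2 or mutant replicate 1 or 3 (adjusted p = 0.0577 to 0.121), with either replicate block (0.12 and 0.0551), with the testis or eggshell covariate (0.0824 and 0.384) and in the phenobarbital arrays alone (0.251). Ugt37A2, next to it in gene order, differed by 0.05 (adjusted p = 0.848). On sucrose Ugt37A3 was at means of 3.63 and 3.60, dim in both genotypes. A probe set shared by Gss1 and Gss2, glutathione synthetases, which make the last bond of glutathione, was dim in wild type at 2.86, 2.88 and 2.84 and at 4.98, 4.99 and 5.01 in the mutant. The difference of 2.13 ± 0.14 was called (4.39-fold, adjusted p = 0.000518) and the arrays within a genotype were almost identical. The other probe set of this pair, at means of 10.15 and 10.60, differed by 0.45 and was not called (adjusted p = 0.178), so both pointed the same way with different sizes. Neither tells Gss1 from Gss2.

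**Figure D3:**
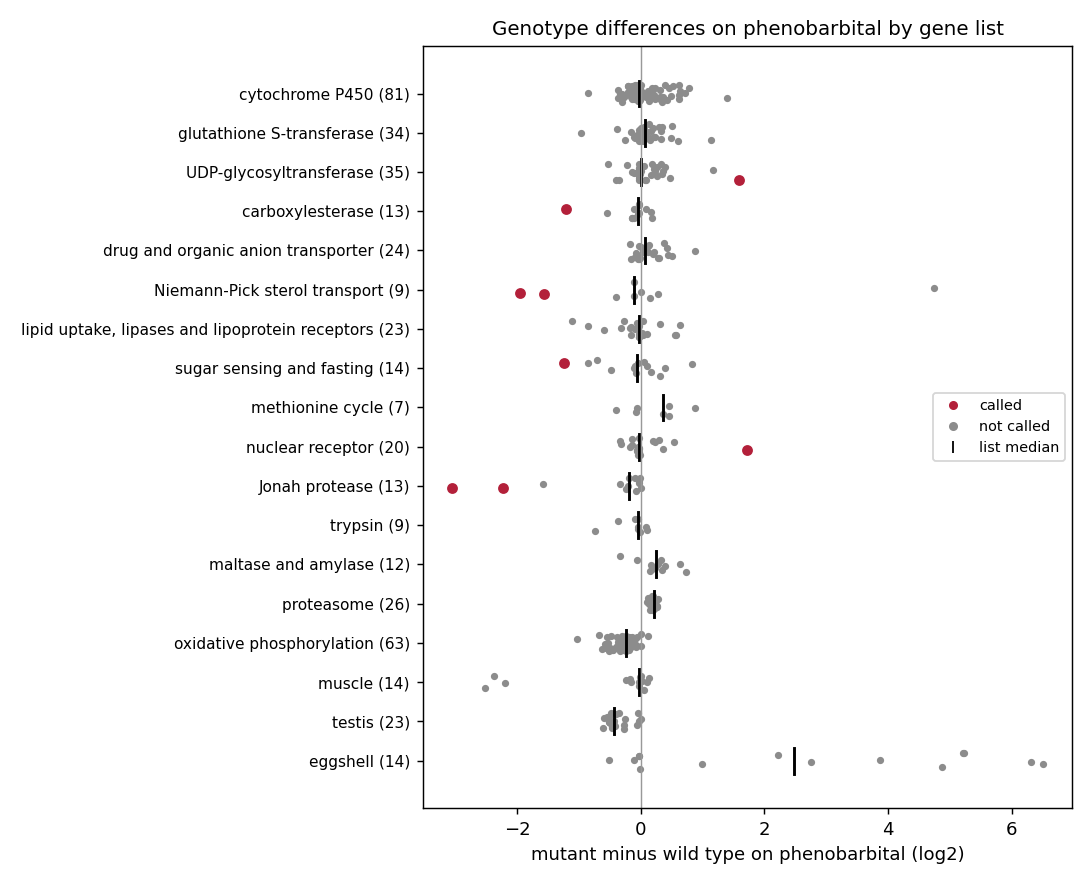
Each point is 1 gene's mutant minus wild-type difference on phenobarbital (log2, horizontal axis) in 18 gene lists, with the number of genes in brackets, called genes in red and the list median as a black bar. Medians lie between -0.43 and 0.36 except for the eggshell list at 2.48, whose genes were not called; the P450 and glutathione S-transferase lists hold no red point.

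The remaining called probe sets belong to genes of less known function or to none. CG8834 was at 10.58, 10.80 and 10.65 in wild type and at 11.73, 11.80 and 11.68 in the mutant, 2.09-fold higher (1.06 ± 0.09, adjusted p = 0.00288). CG13784 was at 6.42, 6.43 and 6.42 against 5.47, 5.34 and 5.55, 1.96-fold lower (-0.97 ± 0.07, adjusted p = 0.000724). Both had very tight arrays and no overlap. For CG13784, however, another probe set at means of 9.29 and 9.49 differed by 0.20 (adjusted p = 0.371) and a dim one by -0.10, so the lower call applies to 1 of 3 probe sets. CG13075 had dim means in both genotypes, at 2.86, 2.81 and 2.85 against 4.08, 3.88 and 3.47 (0.97 ± 0.14, adjusted p = 0.0466). Its call was lost with any 1 wild-type array left out, without mutant replicate 1 or 2 (adjusted p = 0.0706 to 0.173), with either block (0.0786 and 0.0557), with the testis or eggshell covariate (0.0824 and 0.405) and in the phenobarbital arrays alone (0.298). A probe set with no gene name was at 6.75, 7.44 and 7.09 against 9.27, 8.97 and 9.03, 3.99-fold higher (2.0 ± 0.20, adjusted p = 0.00713). It lost its call with the replicate block (0.0598) and in the phenobarbital arrays alone (0.126). Another unnamed one was at 10.06, 10.13 and 10.38 against 11.28, 11.29 and 11.10, a difference of 1.03 ± 0.12 (adjusted p = 0.0141). That call was lost without replicate 1 or 2 of either genotype (adjusted p = 0.0577 to 0.0787), with either block (0.0638 and 0.0589), with the testis or eggshell covariate (0.0553 and 0.3) and in the phenobarbital arrays alone (0.13).

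Lsp2, a hexameric storage protein that the fat body makes mainly in larvae, showed the widest gap of any called gene. It was at 4.20, 4.99 and 6.66 in wild type and at 11.72, 11.24 and 12.46 in the mutant. Every mutant array lay above 11 and every wild-type array below 7, a difference of 6.52 ± 0.80 or 91.8-fold (adjusted p = 0.0229), with a 95% interval of 4.70 to 8.34 on the log2 scale. The wild-type arrays spread over more than 2 log2 units, and the difference ran from 5.98 without wild-type replicate 1 to 7.21, or 148-fold, without wild-type replicate 3. The call was lost without wild-type replicate 1 or 2 or any 1 mutant array (adjusted p = 0.0675 to 0.105), in the phenobarbital arrays alone (0.15), and with the testis or eggshell marker mean as a covariate (0.0793 and 0.3). On sucrose the means were 3.17 and 5.81, a difference of 2.64 with no call (adjusted p = 0.272). The other 2 storage protein genes of the list were dim in all 6 arrays. Yolk protein and other fat body genes of females were not called (4 genes, median 0.41), Yp2 differing by 0.95 (adjusted p = 0.22).

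Markers of the reproductive tissues varied between arrays of a genotype as well as between genotypes. Cp36, of the chorion that coats the egg, was at 2.61, 2.54 and 2.57 in wild type and at 2.66, 12.56 and 12.00 in the mutant. Mutant replicate 1 thus lay with wild type, and the difference of 6.50 was not called (adjusted p = 0.371). Cp16 was at 2.41, 2.40 and 8.6 against 7.94, 10.61 and 10.50, so wild-type replicate 3 lay within the mutant range. The mean over 14 eggshell genes was 3.14, 3.05 and 4.86 in wild type and 4.60, 7.31 and 7.12 in the mutant, with 8 to 12 of the 14 dim in the wild-type arrays and 5 to 10 in the mutant ones. None of the 14 was called, and their median was 2.48. An unadjusted p under 0.05 (limma) was found for 1 of them, against 2151 of all 18769 probe sets. On sucrose, in other arrays, the median difference of the eggshell list was 2.45, also without a call. Its sucrose means were 6.84, 4.57 and 7.74 in wild type and 9.83, 9.13 and 8.14 in the mutant, without overlap. On phenobarbital the mean over 23 testis genes was 8.52, 8.45 and 8.0 in wild type and 8.18, 8.06 and 7.61 in the mutant, with no call and a median of -0.43. Replicate 3 was the lowest of its genotype in the testis list and, at 10.66 and 10.55, in the accessory gland list, whose median difference over 18 genes was -0.11. With the testis mean as a covariate 14 of the 22 remained called, and the 22 differences were 89.6% to 107% of those without it. With the eggshell mean 11 remained called, and the 22 differences were 85.4% to 113% of those without it. The adjusted p of the lost calls rose with little change in size.

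**Figure D4:**
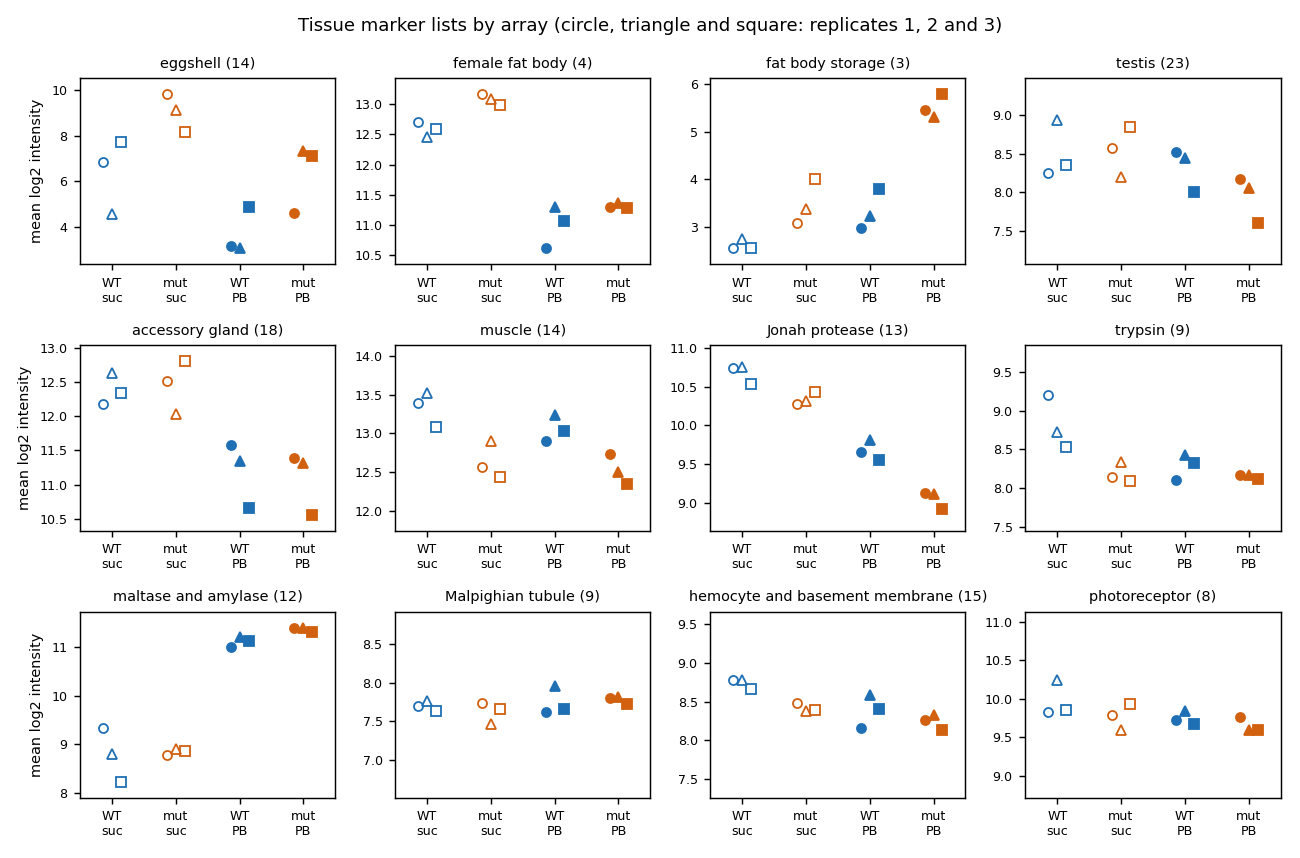
Mean log2 intensity of 12 marker lists in each array, with the number of genes in brackets (open, sucrose; filled, phenobarbital; blue, wild type, WT; orange, mutant, mut; suc, sucrose; PB, phenobarbital); the vertical scales differ between panels. On phenobarbital the eggshell mean runs from 4.60 to 7.31 in the mutant and from 3.05 to 4.86 in wild type, so the genotypes overlap. On that diet replicate 3 (square) is the lowest array of both genotypes in the testis and accessory gland panels.

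In the list of 14 muscle genes none was called and the median was -0.03, but a few members stood far from it. Act88F, fln, TpnC4 and Strn-Mlck, the last outside the list, were named after their values were seen, and none of the 4 passed the test. Act88F, an actin of the indirect flight muscle, was at 13.49, 14.17 and 13.76 in wild type and at 12.15, 11.51 and 11.18 in the mutant, a difference of -2.19 ± 0.50 (adjusted p = 0.236). Flightin (fln), which binds myosin filaments in that muscle, was at 12.19, 13.02 and 12.61 against 10.58, 10.09 and 9.58 (-2.52 ± 0.56, adjusted p = 0.231). Both genes showed no overlap between genotypes. TpnC4, a troponin C, differed by -2.37 ± 0.70 (adjusted p = 0.358) and Strn-Mlck, a titin-related muscle gene, by -2.24 ± 0.42 (adjusted p = 0.154). On sucrose, in other arrays, the 4 genes differed by -2.32, -2.90, -2.64 and -1.97 in that order, also without a call. Act79B, Mlc2 and Prm of the same list differed by 0.10, -0.001 and 0.02.

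Lists of large complexes and of stress and immune genes held no call. All 26 proteasome genes were at a higher mean in the mutant (median 0.21, or 0.18 after quantile normalization), each with an interval within 2-fold. Of 63 oxidative phosphorylation genes 60 were at a lower mean (median -0.23, and -0.33 on sucrose). Of the latter, 58 were not dim, with a median of -0.25. These medians are set against 0.08 over all probe sets that were not dim. Over the members that were not dim, the median was 0.07 for 37 ribosomal protein genes, 0.04 for 23 genes of the vacuolar proton pump, 0.02 for 14 heat shock genes and -0.15 for 9 clock genes. It was -0.47 for 8 antimicrobial peptide genes, 7 of them at a lower mean, and -0.20 for 25 odorant-binding protein genes, 17 of them at a lower mean. Over all probe sets 2151 of 18769 had an unadjusted p under 0.05 (limma). Dim members included, such a p was found for 7 of 26 proteasome, 8 of 37 ribosomal protein and 7 of 27 proton pump genes. It was found for 9 of 63 oxidative phosphorylation, 3 of 9 clock and 0 of 14 heat shock genes. It was also found for 2 of 13 antimicrobial peptide and 6 of 47 odorant-binding protein genes. The genes of a list are not independent replicates.

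The genotype differences on phenobarbital were set beside those on sucrose, which rest on other arrays. On sucrose 40 probe sets were called (0.213%), and 10 were called on both diets, 8 higher (0.0586% of all probe sets were higher on sucrose) and 2 lower (0.155%), which is 45.5% of the phenobarbital calls and 25% of the sucrose calls. The shared calls included Hr96, EMC6, Smg6, CG4734, CG7953, CG8997, CG8834, alpha-Est9 and CG13784. EMC6 differed by 1.6 on sucrose against 1.55 on phenobarbital, and Hr96 by 1.6 against 1.71. CG4734 differed by 2.08 against 3.46, CG7953 by 1.66 against 2.30 and CG8997 by 1.30 against 1.89. Of the 22 phenobarbital calls 20 had the same sign on sucrose and 18 were larger on phenobarbital, a direction that selection on the phenobarbital difference favours. Across the 10341 probe sets that were not dim, which are not independent replicates, the differences on the diets correlated at r = 0.619 and 70.6% had the same sign.

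Calls made on 1 diet alone did not show a difference between diets by themselves, and the interaction contrast tested that. Limma called no probe set for it (0.0%), although 624 had an unadjusted p under 0.05, and the lowest adjusted p was 0.072. A fit with an intensity trend and robust prior called 7, and without mutant phenobarbital replicate 1 or 2 it called 1 and 2. Among the 22 calls the smallest adjusted p of the interaction was 0.0761, for the Gss1 and Gss2 probe set, and 16 had an unadjusted p under 0.05. The interaction contains the phenobarbital difference that selected these 22, so a small p was favoured among them in advance. Jon65Aii, whose genotype difference was -0.92 on sucrose and -3.05 on phenobarbital, had an interaction of -2.12 ± 0.26 (adjusted p = 0.112). CG4734 had one of 1.38 ± 0.18 (adjusted p = 0.129) and Ugt37A3 of 1.61 ± 0.29 (adjusted p = 0.427). Seen from the drug responses, which share the same arrays, 12 of the 22 were called in the mutant (background 4.62%) and 4 in wild type (4.27%), and 9 in neither.

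Some of the widest gaps on sucrose were not measurable on phenobarbital. Npc2d, at 2.18, 3.0 and 2.15 in wild type and 2.06, 2.04 and 2.04 in the mutant on phenobarbital, was dim in all 6 arrays (-0.40, adjusted p = 0.551), against a sucrose difference of -6.75. MFS1 was dim as well, at 2.12, 2.10 and 2.11 against 2.09, 2.09 and 2.08. CG10514, a member of the ecdysteroid kinase-like family, was at 4.54, 3.65 and 2.20 against 2.18 in each mutant array, with a difference of -1.28 (adjusted p = 0.371). For Npc2d and MFS1 drug-fed wild type lay well below the dim limit, and for CG10514 on both sides of it, so a further decrease in the mutant could be read little or not at all.

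**Figure D5:**
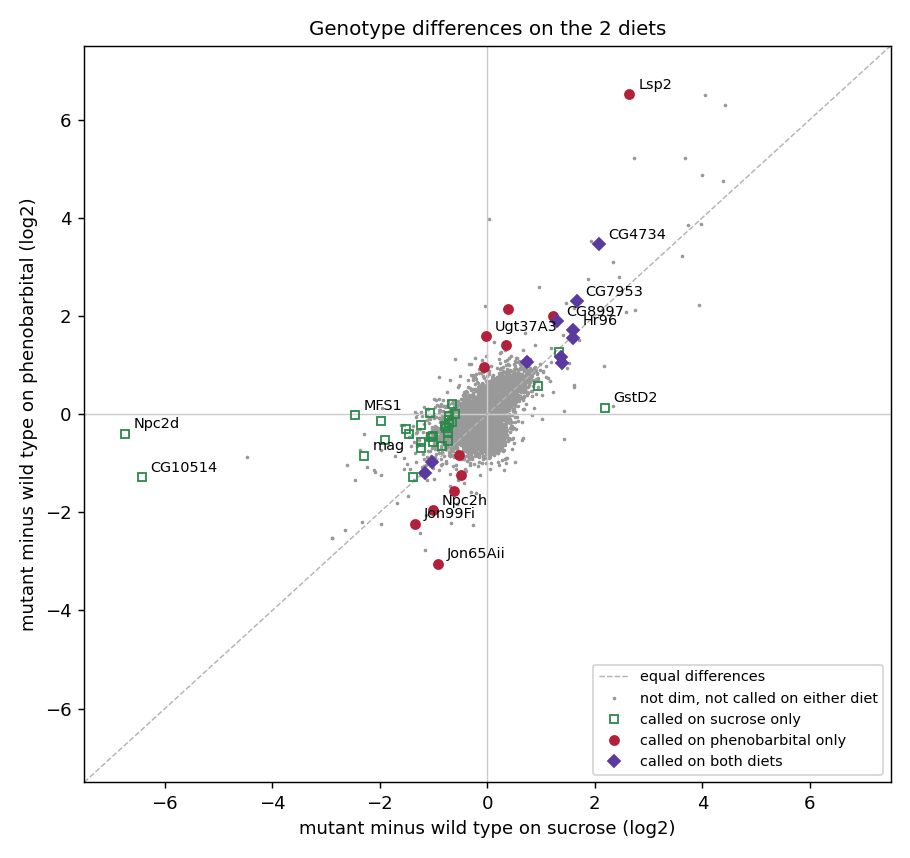
Mutant minus wild-type difference on sucrose (horizontal) and on phenobarbital (vertical), both log2, for probe sets that were not dim and for all called ones; each diet has its own 6 arrays, and the dashed line marks equal differences. Hr96 lies near the dashed line, CG4734, Lsp2 and Jon65Aii lie farther from 0 on phenobarbital, and Npc2d and CG10514 are far from 0 on sucrose only.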

How the data were processed

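The deposited values are GCRMA intensities per probe set, per the submitters' processing notes, made by the authors with background correction, normalization and summary of the probes in one step. The GCRMA version is not stated there. They were read as linear from their range, and log2 was taken here with no further scaling. The platform's gene table gave 1 gene for 13647 of 18769 probe sets, several for 402 and none for 4720. Of the probe sets with 1 gene, 13544 had an Entrez identifier found in the Release 6 plus ISO1 MT gene table, with 0 symbols changed. That table also gave the gene order.

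Limma 3.58.1 (R 4.3.3) fitted 1 mean per group over the 12 arrays (8 residual degrees of freedom, 8.8 with the prior), and p-values were adjusted by Benjamini-Hochberg over all probe sets. In gene lists each gene entered through its probe set of highest mean. The members and lists were chosen with earlier results of these data known. By the naming rule the text gives Hr96 and its neighbours, the called genes, the reference genes and up to 2 uncalled members per list by highest mean. Genes outside it were picked with their values known. The script was tested on simulated data. Depth is not defined for arrays, and 3 arrays per group limit the precision.

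Alternatives were quantile normalization, leaving out dim probe sets, a 2-fold minimum or none, a robust prior with an intensity trend, the 6 phenobarbital arrays alone, the replicate number as a block and leaving out each phenobarbital array. A block within the phenobarbital arrays and the testis or eggshell mean as a covariate were added after seeing the data. Arrays with the same number in both genotypes deviated together on phenobarbital (correlations 0.262, 0.300 and 0.648), which was taken as pairing for that block. However, wild-type 2 with mutant 1 (0.364) and wild-type 1 with mutant 2 (0.115) also correlated. Replicate 3 of either genotype correlated at -0.312 to -0.528 with replicates 1 and 2 of the other. The values thus set replicate 3 apart and do not show pairing by number. On sucrose, arrays with the same number did not deviate together (-0.047, -0.669 and -0.419). The titles are the source of the numbers.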

Additional observations from a re-analysis of the deposited data

How the results depend on the processing

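Of the 16 alternatives, only quantile normalization and the testis or eggshell covariate could change the sign of a called difference, and none did. Those differences were 93.4% to 111%, 89.6% to 107% and 85.4% to 113% of the main ones. The other alternatives either left the difference itself unchanged or left out 1 array where the genotypes did not overlap, so their signs were fixed in advance. CG8834, Smg6, EMC6, CG8997, CG7953, CG4734 and the Gss1 and Gss2 probe set kept their call in each alternative that measured them, 7 of 22. The count of higher probe sets, 14, was 22 with an intensity trend and robust prior, 19 with dim probe sets left out, 9 with the replicate block, 9 with the eggshell covariate and 9 to 22 with 1 phenobarbital array left out. The lower count, 8, was 12 with an intensity trend and robust prior, 12 with dim probe sets left out, 1 in the phenobarbital arrays alone, 5 with the block within them, 2 with the eggshell covariate and 5 to 8 with 1 array left out. The interaction count, 0, was 7 with the trend and robust prior and 0 to 2 with 1 array left out. The sucrose count, 40, was 26 with the block within the phenobarbital arrays, 74 with the testis covariate, 11 with the eggshell covariate and 25 to 41 with 1 phenobarbital array left out, the lowest being 25 and 26 without mutant replicate 1 and 2. Of the 22 calls, 16 remained with the replicate block, 14 with the block within the phenobarbital arrays, 9 in these arrays alone and 13 to 18 with 1 array left out. The 2-fold minimum removed PCB, CG13784 and CG13075. The cause of these shifts was not tested. A fit with fewer arrays has fewer degrees of freedom, and its part in the shifts was not tested either. Values near the dim limit, such as those of CG13075, Ugt37A3 and the Gss1 and Gss2 probe set, limit what a fold can show.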
